A study of Homo sapiens with 6 samples.

Results

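The AP-1, EGR and NR4A immediate early genes were described in BCWM1 cells. This established human line comes from Waldenström macroglobulinemia, a lymphoma of B cells that mature towards plasma cells and secrete IgM. The members were taken by gene name: FOS, FOSB, JUN, JUNB, EGR1, EGR2, EGR3, NR4A1, NR4A2 and ATF3. Every probe set (a group of probes made to read 1 transcript or several related ones) that the platform annotation ties to only 1 of these names was used. This gave 20 of 54613 probe sets. They cover 9 of the 10 members, out of 19775 genes named on the arrays, and EGR2 was not analysed here. Total RNA of 3 samples of parental cells and 3 samples of mutated cells was compared, one array each, both groups being the same BCWM1 line. The series title names the mutation as C1013G in CXCR4, the receptor of the chemokine CXCL12. The sources used here do not give the way the mutated cells were made, whether they are 1 clone or whether a vector control was kept. Nothing in the labels makes the 3 samples of a group separate cultures. The p-values therefore weigh differences against the spread of these samples alone, and that spread may be technical.

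Immediate early genes are transcribed within minutes of a signal, without new protein synthesis, and most of their mRNAs are short-lived. FOS and JUN family proteins pair into AP-1, a dimer of leucine zipper factors. EGR proteins bind GC-rich sites through zinc fingers, and NR4A proteins are orphan nuclear receptors that act without a known natural ligand. In B cells many of these genes respond to antigen receptor signals that run through ERK, JNK and calcium.

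Within this set the mutated cells did not shift one way. JUN, JUNB, EGR1 and EGR3 were lower in mutated than in parental cells, NR4A2 and ATF3 were higher, and NR4A1 did not pass the test. By gene, 4 of the 7 tested members fell and 2 rose, while 18.9% of all 13644 tested genes fell and 30.1% rose. FOS and FOSB lay in the dimmest part of the arrays in both groups. Of 16 tested member probe sets, 13 passed an adjusted p of 0.05, 8 lower and 5 higher in mutated cells. Over all 32768 tested probe sets 47.5% passed, 16.6% lower and 30.9% higher. Mutated and parental values did not overlap in 14 of the 16, against 57.8% of all tested probe sets. Probe sets of 1 gene read transcripts of that gene in the same samples, so they are not independent of each other.

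**Figure D1:**
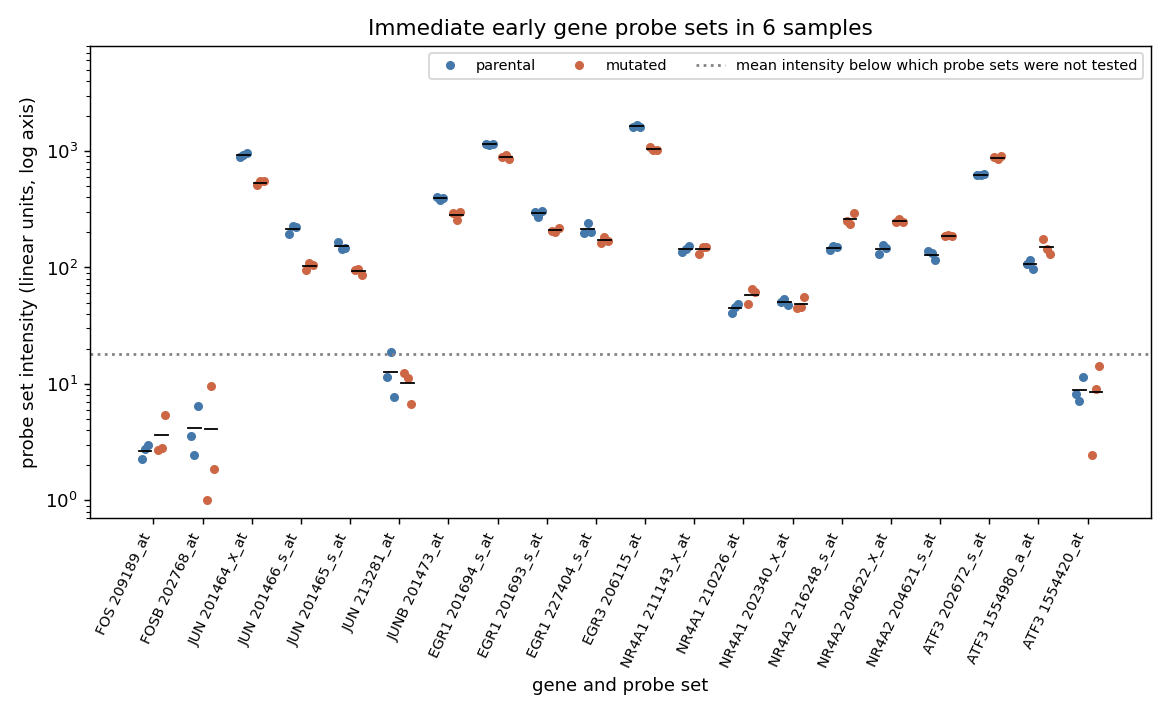
Intensity of each member probe set (log axis) in the 3 parental and 3 mutated samples; points are samples and black bars are group means. JUN, JUNB, EGR1 and EGR3 mutated points lie below the parental ones on every tested probe set, those of NR4A2 and ATF3 lie above them on every tested probe set, and FOS and FOSB lie under the dotted line at 18.0, below which probe sets were not tested.

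Array medians ran from 28.46 to 31.83 intensity units and were on average higher in the mutated group. Median centring of each array moved the median log2 change over tested probe sets from 0.060 to −0.019. Samples of a group correlated more closely (Pearson's r of 0.994 to 0.996 across probe sets, which are not replicates) than samples of different groups (0.967 to 0.970). B cell markers were bright, with MS4A1, which encodes CD20, between 2788 and 10635 on its 4 probe sets. The T cell markers CD3D, CD3E and CD3G reached at most 26.42, and CD2 reached 51.57. The myeloid markers CD14 and LYZ reached at most 8.67, CSF1R 26.41 and FCN1 36.75. Of the 5 stromal markers, COL1A2, COL3A1 and LUM reached at most 17.63, while COL1A1 reached 751 and DCN 60.8. The summed intensity of tested plasma cell markers was 9414 to 9953 in parental and 8239 to 8997 in mutated samples, with 3 of 5 (SDC1, PRDM1 and CD38) lower and 0 higher. That of the 2 tested stromal markers was 718 to 804 and 449 to 545, with 1 lower (COL1A1, −0.67 in log2). Other tested COL1A1 probe sets ran from −0.32 to 0.13. Tested B cell markers summed to 20363 to 21081 and 20609 to 21480, with 2 of 5 higher (CD79A and CD79B) and 1 lower (CD22). Other tested CD79B probe sets ran from −0.21 to 0.17 in log2 change. The 1 tested T cell marker (CD2) and the 2 tested myeloid markers (CSF1R and FCN1) did not pass. Among all tested genes 30.1% were higher and 18.9% lower in mutated cells. The part of these markers in the results was not tested.

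The stretches before a listed start of 3 tested members are shown because they held letters that match motifs searched here. Each stretch is the 250 bases before a RefSeq start (GRCh38.p14), read 5′ to 3′ along the gene. Capitals mark matches to the motifs searched on both strands. The motifs were the cyclic AMP response element TGACGTCA, its variant TGACATCA (the jun type of site), the AP-1 site TGANTCA, the EGR site GCGNGGGCG and the CArG box, which serum response factor binds. JUN lies on the minus strand of chromosome 1 (chr1:58784048-58784297), EGR1 on the plus strand of chromosome 5 (chr5:138465229-138465478), and ATF3 on the plus strand of chromosome 1 (chr1:212565157-212565406).
JUN: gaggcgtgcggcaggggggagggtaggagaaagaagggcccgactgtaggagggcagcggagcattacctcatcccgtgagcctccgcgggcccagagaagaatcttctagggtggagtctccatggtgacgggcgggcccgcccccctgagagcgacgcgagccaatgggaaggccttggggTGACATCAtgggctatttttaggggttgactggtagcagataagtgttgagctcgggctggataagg
EGR1: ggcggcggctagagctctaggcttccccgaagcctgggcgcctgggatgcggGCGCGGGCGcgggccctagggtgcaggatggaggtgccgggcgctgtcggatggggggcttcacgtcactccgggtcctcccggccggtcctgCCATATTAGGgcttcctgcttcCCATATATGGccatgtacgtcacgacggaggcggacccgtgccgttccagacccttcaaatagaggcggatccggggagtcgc
ATF3: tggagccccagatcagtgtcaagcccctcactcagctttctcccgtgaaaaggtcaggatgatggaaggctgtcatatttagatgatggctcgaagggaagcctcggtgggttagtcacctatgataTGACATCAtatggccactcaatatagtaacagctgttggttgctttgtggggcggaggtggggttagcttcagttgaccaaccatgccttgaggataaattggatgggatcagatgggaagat

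EGR1 held 2 CArG boxes, at bases 105 to 96 and 83 to 74 before its start, and 1 EGR site at bases 198 to 190. A CArG box was found in 1.16% of the 35114 windows of the same length in the promoter table, and an EGR site in 8.41%. JUN held TGACATCA at bases 67 to 60 before its start, and ATF3 held the same letters at bases 123 to 116 before 1 of its 2 listed starts. That motif was found in 2.38% of all windows, TGACGTCA in 1.65% and TGANTCA in 6.57%. JUN was lower and ATF3 higher in mutated cells, and a link between these letters and the changes was not tested. Which ATF3 start the probe sets read was not examined. The windows of FOS, FOSB, JUNB and NR4A1 held none of the 5 motifs within these letters, and 1 of 3 EGR2 windows held a CArG box. No window was used for EGR3 and NR4A2. Member windows on chromosome 8, where EGR3 lies, were left out, while the shares over all windows were not filtered by chromosome. A match to these letters is a description of the window, and binding was not measured.

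JUN encodes the AP-1 subunit that FOS proteins pair with. Its brightest probe set, 201464_x_at, read 883, 917 and 967 in parental samples and 511, 548 and 550 in mutated samples. Every mutated sample lay far below every parental one, and within each group the samples were close. The log2 change, on the scale of log2(intensity + 16) that holds for all changes given here, was −0.76 (SE 0.058; p adjusted by Benjamini-Hochberg over all limma tests = 1.1e-04). On that scale mutated cells held 0.589 of the parental level. The suffix _x_at marks probes that may bind other transcripts, and _s_at probes shared by several transcripts.

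The other JUN probe sets were read beside it. Probe set 201466_s_at fell from 193, 228 and 222 to 95.6, 110 and 105, a log2 change of −0.94 (SE 0.080; limma, adjusted p = 1.7e-04). Probe set 201465_s_at fell from 167, 144 and 146 to 95.7, 97.4 and 86.1, a log2 change of −0.63 (SE 0.074; limma, adjusted p = 7.3e-04). The fall was thus seen on each of the 3 tested JUN probe sets, with no overlap of the groups. The last JUN probe set, 213281_at, was too dim to be tested, at 7.72 to 18.9 in parental and 6.70 to 12.5 in mutated samples.

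JUNB encodes a second AP-1 subunit, a weaker activator than JUN that can also restrain it. Its 1 probe set, 201473_at, read 401, 381 and 398 in parental samples and 295, 255 and 302 in mutated samples. All 3 mutated values lay below the parental ones, mutated replicate 2 being the lowest. The log2 change was −0.45 (SE 0.072; limma, adjusted p = 0.0027).

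FOS, the prototype immediate early gene and usual partner of JUN, read 2.28, 2.74 and 2.98 in parental and 2.72, 2.80 and 5.40 in mutated samples. FOSB, its close relative, read 3.57, 2.43 and 6.42 in parental and 1.00, 9.53 and 1.86 in mutated samples. Both sets of values overlapped between groups and lay far below the array medians. The means of these probe sets stood at the 5.69th and 8.52nd percentile of all probe sets, and no detection calls were used here. When dim probe sets were kept in the fit, the log2 change of FOS was 0.071 (limma, adjusted p = 0.54) and that of FOSB −0.02 (limma, adjusted p = 0.95). At this signal a change in either gene was not detectable.

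ATF3, a stress-induced leucine zipper factor that can pair with JUN proteins and often represses, went the other way. Its brightest probe set, 202672_s_at, read 625, 628 and 631 in parental and 881, 848 and 911 in mutated samples. The parental samples were almost equal, and every mutated sample lay above them. The log2 change was 0.48 (SE 0.049; limma, adjusted p = 3.8e-04), or 1.39 times the parental level on that scale. Probe set 1554980_a_at rose from 106, 115 and 96.7 to 175, 145 and 132, a log2 change of 0.44 (SE 0.11; limma, adjusted p = 0.015). The call on this dimmer probe set was lost with quantile normalization (log2 change 0.25; limma, adjusted p = 0.091) and without parental replicate 3 (0.39; limma, adjusted p = 0.051). Probe set 1554420_at was too dim to be tested, at 2.47 to 14.2 over all samples.

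EGR1 encodes a zinc finger factor that follows ERK activity closely in many cells. Its brightest probe set, 201694_s_at, read 1145, 1122 and 1153 in parental and 888, 930 and 850 in mutated samples. The groups were well apart, though the change was the smallest among the 6 member genes that passed. The log2 change was −0.35 (SE 0.052; limma, adjusted p = 0.0019), or 0.783 of the parental level on that scale. Probe set 201693_s_at fell from 301, 270 and 303 to 206, 201 and 218, a log2 change of −0.46 (SE 0.064; limma, adjusted p = 0.0015). Probe set 227404_s_at fell from 198, 242 and 204 to 163, 182 and 167, a log2 change of −0.30 (SE 0.086; limma, adjusted p = 0.027). All 3 probe sets pointed down, and on the last of them the groups were closest, with parental replicate 2 standing high. Its call was lost without mutated replicate 1 (log2 change −0.27; limma, adjusted p = 0.081), without mutated replicate 3 (−0.29; limma, adjusted p = 0.063) and when dim probe sets were kept (−0.30; limma, adjusted p = 0.054).

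EGR3, a relative of EGR1 that is induced by antigen receptor signals and is known for restraining lymphocyte activation, was read by 1 probe set, 206115_at. It read 1619, 1658 and 1617 in parental and 1079, 1015 and 1031 in mutated samples. The spread within each group was small against the gap between them. The log2 change was −0.64 (SE 0.048; limma, adjusted p = 1.05e-04), or 0.642 of the parental level on that scale.

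NR4A2, which encodes the nuclear receptor NURR1, was higher in mutated cells on each of its 3 probe sets. Probe set 216248_s_at rose from 140, 152 and 148 to 251, 238 and 294, a log2 change of 0.76 (SE 0.083; limma, adjusted p = 5.2e-04). Probe set 204622_x_at rose from 131, 155 and 147 to 247, 260 and 245, a log2 change of 0.74 (SE 0.070; limma, adjusted p = 2.9e-04). Probe set 204621_s_at rose from 137, 132 and 117 to 186, 191 and 187, a log2 change of 0.50 (SE 0.066; limma, adjusted p = 0.0012). On none of them did the groups overlap. The brightest gave 1.69 times the parental level on the log2(intensity + 16) scale.

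NR4A1, which encodes the related receptor NUR77 and serves as a reporter of antigen receptor signals in lymphocytes, did not pass on any of its 3 probe sets. Its brightest, 211143_x_at, read 135, 143 and 153 in parental and 131, 149 and 150 in mutated samples, and the groups overlapped. The log2 change was −0.0089, with a 95% confidence interval from −0.18 to 0.16 (limma, adjusted p = 0.93). Probe set 202340_x_at gave −0.046, with an interval from −0.24 to 0.15 (limma, adjusted p = 0.67). The only plain probe set, 210226_at, read 40.6, 45.6 and 48.1 in parental and 48.3, 64.9 and 61.7 in mutated samples. Here the groups were apart by a narrow margin, and the log2 change was 0.28 with an interval from 0.045 to 0.52 (limma, adjusted p = 0.054). That probe set passed with a pseudocount of 64 (log2 change 0.17; limma, adjusted p = 0.044), in a fit blocked on the replicate number (0.28; limma, adjusted p = 0.023) and without mutated replicate 1 (0.38; limma, adjusted p = 0.011). Over these and the other alternatives in which it was tested its adjusted p ran from 0.011 to 0.27. The 3 NR4A1 probe sets therefore gave differing values, and did not settle whether NR4A1 changed.

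**Figure D2:**
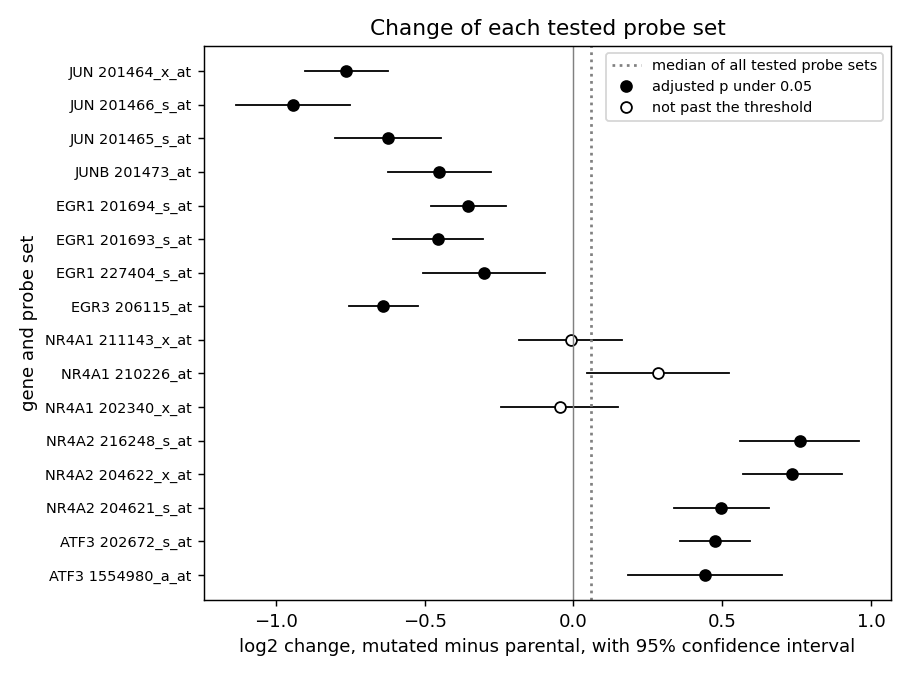
Log2 change of each tested probe set in mutated against parental cells, with its 95% confidence interval; filled points passed an adjusted p of 0.05. JUN, JUNB, EGR1 and EGR3 lie between −0.94 and −0.30, NR4A2 and ATF3 between 0.44 and 0.76, and the NR4A1 points between −0.046 and 0.28; the dotted line at 0.060 is the median of all tested probe sets.

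The mutated arrays carried more probe sets called higher than lower, and that balance depended on the scaling: 65.1% of all calls were higher as given, 50.1% with quantile normalization and 50.7% with median centring of each array. The median log2 change over tested probe sets moved from 0.060 to −0.018 and −0.019. The members' directions were read under each scaling. JUN gave −0.80 and −0.84, JUNB −0.54 and −0.53, EGR1 −0.37 and −0.43, and EGR3 −0.67 and −0.72 with quantile normalization and median centring. NR4A2 gave 0.61 and 0.68 and ATF3 0.45 and 0.40. Read mainly by their brightest probe set, these 6 genes kept direction and call in each of the 16 or 17 alternatives run for a gene. The highest adjusted p was 0.015 (limma), which ATF3 reached when read by its dimmer probe set alone. NR4A1, read in the same way, passed in none of its 17 alternatives, with log2 changes from −0.19 to 0.28. The 0.28 came from its plain probe set, 210226_at, which by itself passed under some settings, as given above.

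**Figure D3:**
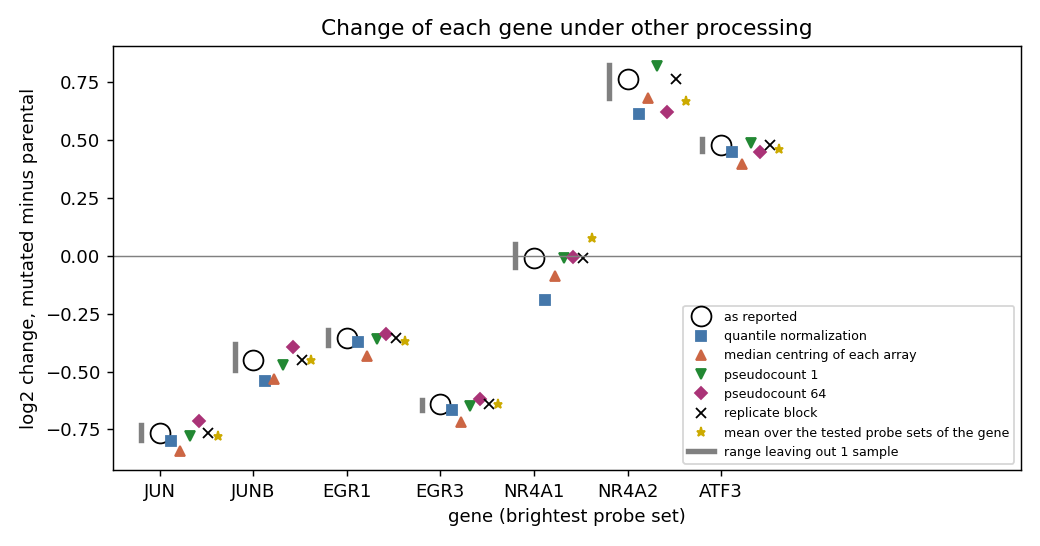
Log2 change of each tested member gene as reported (open circles) and under other processing, with a grey bar for the range when 1 sample is left out. JUN, JUNB, EGR1 and EGR3 stay below 0 and NR4A2 and ATF3 above 0 under the settings drawn, while NR4A1 lies on both sides of 0.

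Relatives were also compared within each array. The difference between 2 probe sets on 1 array does not move when all its log2 values shift equally, as with median centring. Quantile normalization can move this difference, and so can rescaling of the intensities before the log2 transformation. The pairs were not compared under either. The value is the difference of the log2 values of the 2 genes, each read by its brightest probe set, and what is compared is how it changes from parental to mutated cells, not which gene is more abundant. NR4A2 minus NR4A1 was 0.027 ± 0.062 in parental and 0.80 ± 0.15 in mutated samples (SD, n = 3), a change of 0.77. JUNB minus JUN was −1.20 ± 0.075 in parental and −0.88 ± 0.15 in mutated samples (SD, n = 3), a change of 0.31. EGR3 minus EGR1 was 0.51 ± 0.041 in parental and 0.22 ± 0.087 in mutated samples (SD, n = 3), a change of −0.29. The mutated differences did not overlap the parental ones in any of the 3 pairs. The exact two-sided permutation p was 0.10 in each pair, also after Benjamini-Hochberg adjustment over the 3 pairs, which is the smallest p that 3 against 3 samples allow. These sizes depended on the probe set read, as seen over every other pair of tested probe sets, an alternative chosen after seeing the data. The change of NR4A2 against NR4A1 ran from 0.21 to 0.81, and with NR4A2 204621_s_at and NR4A1 210226_at, which gave the lowest, the groups overlapped (exact two-sided permutation p = 0.30). That of JUNB against JUN was 0.49 with JUN 201466_s_at and 0.17 with JUN 201465_s_at, where the groups overlapped (exact two-sided permutation p = 0.30). That of EGR3 against EGR1 was −0.18 and −0.34 with the 2 other EGR1 probe sets, with no overlap. FOSB against FOS and the pairs with EGR2 were not compared.

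The genes whose pattern over the 6 samples was most like those of 2 members were found by the root mean square difference of mean-centred log2 values, over 13637 other genes. For NR4A2, the member with the largest rise, they were PGRMC2 (0.033), CLTRN (0.042) and CBFA2T2 (0.042). For JUN, the member with the largest fall, they were PITPNM1 (0.030), ITPR2 (0.030) and CTAG2 (0.034). With 2 groups of 3 samples, a gene with an equal group difference ranks high on this measure.

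The relatives and partners of AP-1 were split. Of 14 listed genes 10 were tested, of which 4 rose, 4 fell and 2 did not pass, with a median log2 change of 0.022. Over all 13644 genes tested 30.1% rose and 18.9% fell, with a median of 0.038. BATF3 fell from 1939, 2040 and 1892 to 1388, 1367 and 1349, and BATF from 2979, 3087 and 3030 to 2136, 2119 and 1959; both encode lymphoid partners of JUN proteins. JUND, the JUN family member that is expressed more constantly, gave −0.44 on its brightest probe set, but 0.021 and 0.024 on its 2 others. MAFF (−0.30), a small MAF factor, fell as well. BATF2 rose from a dim 19.7, 18.3 and 14.02 to 61.7, 67.9 and 44.4, and JDP2 (0.44), which encodes a repressor of AP-1, ATF7 (0.40, with −0.064 to 0.43 on its other probe sets) and ATF2 (0.18) rose too. The ATF2 call was lost with either other scaling (limma, adjusted p = 0.066 and 0.18) and in the blocked fit (0.060). The list thus held equal numbers in both directions.

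The EGR and NR4A relatives and cofactors were few. Of 6 tested genes 2 fell, 0 rose and 4 did not pass, with a median log2 change of −0.21. Among all tested genes 18.9% fell and 30.1% rose. The 2 that fell encode corepressors of EGR proteins: NAB2, itself an EGR target, went from 412, 417 and 412 to 351, 332 and 343, and NAB1 gave −0.15. The NAB1 call was lost in the blocked fit (limma, adjusted p = 0.094), and its other probe sets ran from −0.42 to 0.017. EGR4 (−0.35; limma, adjusted p = 0.16) and NR4A3 (−0.35; limma, adjusted p = 0.25) were dim and did not pass.

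Upstream of these genes lie serum response factor and its cofactors, CREB factors, and the kinases that activate them. Of 26 listed genes 20 were tested, of which 3 rose, 7 fell and 10 did not pass, with a median log2 change of −0.076. The shares over all tested genes were 30.1% higher and 18.9% lower. RPS6KA1, a kinase downstream of ERK, fell from 1251, 1133 and 1134 to 771, 791 and 753. MRTFA, a cofactor of serum response factor, fell from 240, 236 and 220 to 126, 151 and 143. RPS6KA5 (−0.51), a kinase that phosphorylates CREB and histone H3, and CREB1 (−0.47) fell as well, though other CREB1 probe sets ran from −0.37 to 0.24. MAPK8 (0.29), which encodes the JUN kinase JNK1, ELK3 (0.37) and MRTFB (0.17) rose. With quantile normalization only MAPK8 of these 3 passed as higher, the MRTFB call was also lost with median centring (limma, adjusted p = 0.18), and SRF itself did not pass (−0.14; limma, adjusted p = 0.17).

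Other immediate early genes fell more often than they rose. Of 33 listed genes 28 were tested, of which 15 fell, 6 rose and 7 did not pass, with a median log2 change of −0.24. Among all tested genes 18.9% fell and 30.1% rose. PTGS2, the inducible cyclooxygenase, went from 86.1, 85.6 and 90.0 to 8.27, 8.73 and 5.96, and its other probe set gave −0.58. KLF2, a factor of lymphocyte quiescence, fell from 559, 589 and 554 to 183, 178 and 143, and TRIB1, a pseudokinase gene, from 1054, 1106 and 1074 to 546, 552 and 517. DUSP2, a MAP kinase phosphatase, fell from 5057, 5326 and 5157 to 3417, 3441 and 3420. The 6 that rose, named after their values were seen, were NFIL3 (0.78), DUSP1 (0.57), HBEGF (0.48), ARC (0.33), KLF10 (0.31) and KLF6 (0.29). The HBEGF call was lost with quantile normalization, median centring and the block (limma, adjusted p = 0.17, 0.058 and 0.051). The MAP kinase phosphatase genes DUSP2 and DUSP1 therefore went opposite ways, as did NR4A2 and JUN.

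Genes with textbook AP-1 or EGR sites were mostly lower. Of 20 listed genes 16 were tested, of which 9 fell, 2 rose and 5 did not pass, with a median log2 change of −0.31. The shares over all tested genes were 18.9% lower and 30.1% higher. PDGFA, a growth factor gene, fell from 705, 701 and 732 to 181, 184 and 172, and its other probe set gave −2.00. PRDM1, which drives plasma cell differentiation, fell from 354, 362 and 330 to 109, 104 and 103, and is also 1 of the 3 lower plasma cell markers. The adhesion receptor gene CD44 (−0.83, with −0.60 to 0.22 on its other probe sets) and PLAUR (−1.87), the urokinase receptor gene, fell too, but the other PLAUR probe set gave 0.033. CCND1, cyclin D1, rose from 94.99, 81.6 and 69.5 to 227, 214 and 206, and MMP9, a matrix protease gene, from 79.3, 72.6 and 82.2 to 140, 139 and 141. Genes of this list thus passed in both directions.

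**Figure D4:**
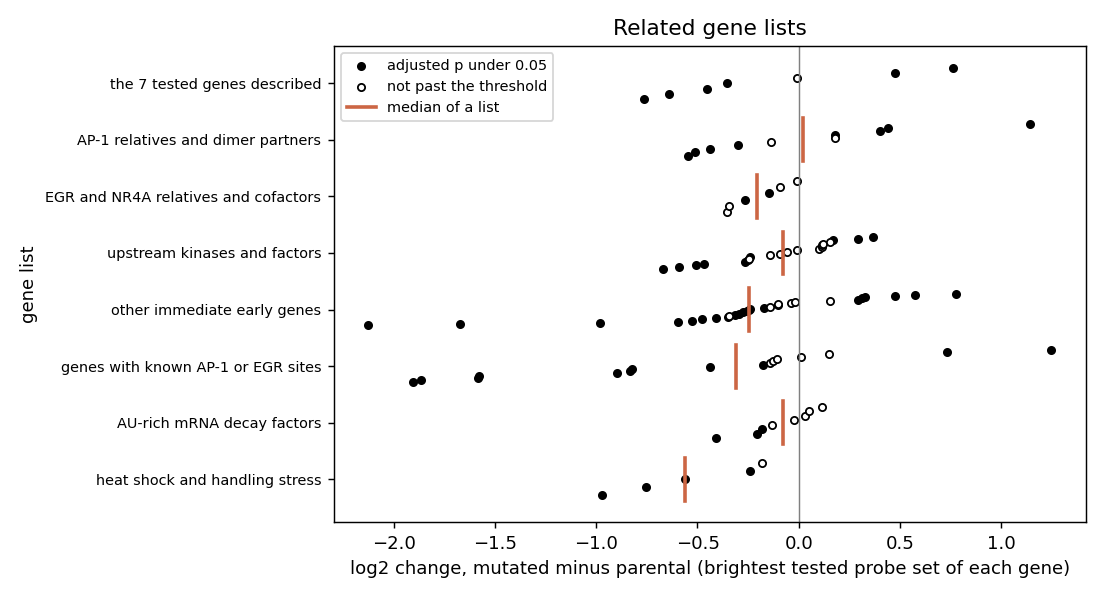
Log2 change of each tested gene of the 7 lists and of the 7 tested members, on the brightest tested probe set; filled points passed an adjusted p of 0.05 and vertical bars are list medians. The list medians run from −0.56 (heat shock) to 0.022 (AP-1 relatives), and points of every list except 3 (EGR and NR4A cofactors, mRNA decay, heat shock) are filled on both sides of 0.

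Levels of short-lived mRNAs also depend on decay, and proteins that bind AU-rich elements speed or slow it. Of 8 such genes tested 3 fell, 0 rose and 5 did not pass, with a median log2 change of −0.076. Among all tested genes 18.9% fell and 30.1% rose. Those of the list that fell were ZFP36 (−0.41), which encodes the decay factor tristetraprolin and is an immediate early gene itself, ELAVL1 (−0.21) and ZFP36L2 (−0.18). Other ELAVL1 probe sets ran from 0.00042 to 0.45 and that of ZFP36L2 gave 0.16, and the ZFP36L2 call was lost in the blocked fit (limma, adjusted p = 0.054), while ZFP36 had 1 tested probe set. Its values were 387 ± 37.0 in parental and 288 ± 23.3 in mutated samples (SD, n = 3).

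Genes of heat shock and handling stress, which can change while cells are collected, were read as markers of RNA handling and culture state. Of 8 listed genes 5 were tested, of which 4 fell, 0 rose and 1 did not pass, with a median log2 change of −0.56. The shares over all tested genes were 18.9% lower and 30.1% higher. HSPB1 fell from 516, 540 and 500 to 263, 281 and 230, and DNAJB1 from 560, 533 and 521 to 332, 302 and 303. HSPH1 (−0.56) and HSP90AA1 (−0.24) fell with them. Summed over the 5 genes, intensity was 13925 to 14496 in parental and 11089 to 11415 in mutated samples. Chaperone genes therefore moved with JUN, JUNB, EGR1 and EGR3 and against ATF3 and NR4A2, and their part in the results was not tested.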

How the data were processed

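The deposited values are the authors' probe set intensity on a linear scale, for 6 arrays. How probes were summarised and arrays normalized is not stated in these sources. Per the labels, RNA was column-purified and turned into biotin-labelled cRNA. Values were transformed to log2(intensity + 16), a scale that understates the change of dim genes. Leaving out the dimmest 40% by mean (an intensity of about 18.0) kept 32768 probe sets for limma 3.58.1 under R 4.3.3, with lmFit, eBayes, two-sided tests and group as the only term. The Benjamini-Hochberg adjustment ran over every tested probe set, with calls at 0.05. The brightest tested probe set stood for its gene. Symbols came from the platform annotation (41091 probe sets with 1 symbol, 1801 with several, 11721 with none), updated through a RefSeq table of GRCh38.p14.

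The members, lists and tests were chosen with earlier results of these data known, so no list is independent evidence. The text names all member probe sets, up to 4 called genes of each list by adjusted p, and all called genes of a list where 5 or fewer moved one way; genes named outside this rule (EGR4, NR4A3, SRF and those so marked) were chosen after their values were seen. Promoter windows of 12 starts, with chromosome 8 left out for members, covered 8 of the 10 members. The alternatives were quantile normalization, median centring, no filter, a filter of 60%, trend and robust eBayes, weighted arrays, a pseudocount of 1 or 64, the replicate number as a block, other probe sets of a gene, each sample left out in turn and, added after seeing the data, every pair of probe sets of the relatives compared within arrays. The fit and the motif search were tested on simulated data. The number of arrays limits the precision. Plots were made in Python 3.11.15 (matplotlib 3.10.9).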

Additional observations from a re-analysis of the deposited data

How the results depend on the processing

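Between 12 and 14 member probe sets passed in the 15 alternatives to the fit, against 13 as given, with 4 to 6 higher and 7 to 8 lower. The calls over all probe sets moved too. Alternatives on the same 32768 probe sets called 13017 to 16789, against 15553 as given. Without the filter 14336 of 54613 passed, and with the filter of 60% 13392 of 21845. Quantile normalization called 7798 higher and 7772 lower, against 10120 and 5433 as given. The change of NR4A2 against NR4A1 within an array was 0.63 with a pseudocount of 64. With other probe sets, an alternative added after seeing the data, it was 0.48 and 0.45 (NR4A1 210226_at with NR4A2 216248_s_at and 204622_x_at), and 0.51, 0.21 and 0.54 for NR4A2 204621_s_at with NR4A1 211143_x_at, 210226_at and 202340_x_at. JUNB against JUN was 0.49 with JUN 201466_s_at and 0.17 with 201465_s_at, and EGR3 against EGR1 −0.18 with EGR1 201693_s_at. With the replicate block 14 member probe sets passed, and 1 EGR and NR4A cofactor fell. With quantile normalization 1 upstream gene rose. By the labels, samples of the same number share only that number, and whether it marks a common batch is not stated. Their deviations from the group means correlated at 0.11, 0.027 and 0.11 across probe sets, each sample correlating best with its own number. Of 58 called genes of the 7 lists, 4 lost the call with quantile normalization, 3 with median centring and 6 with the replicate block, and 0 turned sign. A further tested probe set existed for 34 of them and gave the opposite sign for 9. Without the suffixes _s_at and _x_at no tested probe set was left for JUN, EGR1 and NR4A2. For FOS and FOSB the signal was the limit.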
